A study of Mus musculus with 8 samples.

Results

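Genes that mark or drive the step from radial glial cells to intermediate progenitor cells were followed in RNA sequencing of single embryonic mouse cortices with 1 or no intact copy of Mboat7. They are 10 of the 22840 genes that both deposited count tables list: Neurog1, Neurog2, Eomes, Neurod1, Neurod4, Insm1, Btg2, Gadd45g, Mfng and Sstr2. They were taken by symbol from a list that was chosen with earlier results of these data known, and all 10 passed the filter on low counts at both stages. Mboat7 encodes the acyltransferase MBOAT7 (LPLAT11), which places arachidonic acid in phosphatidylinositol. Cortices came from C57BL/6N-background embryos collected regardless of sex. There were 2 Mboat7+/- and 2 Mboat7-/- embryos at embryonic stage E11.5 and the same numbers at E12.5, 8 cortices in all. The knockout is global, so every cell of the embryo carries it. The control embryos are heterozygous, and no wild-type cortex was analysed here.

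In the embryonic cortex, radial glial cells (RGCs) line the ventricle and either divide to renew themselves, give rise to a neuron directly, or give rise to intermediate progenitor cells (IPCs), which move to the subventricular zone and divide there to make neurons. The proneural basic helix-loop-helix (bHLH) factors NEUROG1 and NEUROG2 start this step: they bind short DNA motifs called E-boxes, switch on Notch ligands that hold neighbouring cells back, and switch on a cascade of later factors. EOMES, also called TBR2, is the T-box factor that defines IPCs. NEUROD1 and NEUROD4 are bHLH factors that act after the neurogenins, and INSM1 is a zinc-finger protein that promotes the formation of basal progenitors. BTG2 and GADD45G are associated with withdrawal from the cell cycle, MFNG is a glycosyltransferase that modifies Notch receptors, and SSTR2 is a receptor for somatostatin.

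Because the genes form a cascade of E-box-binding factors and their targets, the 250 bases before the RefSeq start site were read for the 8 of 10 genes with an entry (assembly GRCm38.p6). Insm1 and Mfng had no entry, and Neurod4 had more than 1 start, which gave 9 promoters. The 4 shown are those of the founding factor Neurog2, the IPC factor Eomes, and Neurod1 and Gadd45g, which carry E-boxes. They are written 5′ to 3′ on the strand of the gene, with the general E-box CANNTG and the TATA-like heptamer TATATAA in capitals.
Neurog2: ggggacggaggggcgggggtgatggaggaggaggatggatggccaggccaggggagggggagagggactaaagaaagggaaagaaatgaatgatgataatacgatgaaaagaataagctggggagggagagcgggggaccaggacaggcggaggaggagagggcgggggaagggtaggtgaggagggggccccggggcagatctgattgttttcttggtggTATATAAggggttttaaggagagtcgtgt
Eomes: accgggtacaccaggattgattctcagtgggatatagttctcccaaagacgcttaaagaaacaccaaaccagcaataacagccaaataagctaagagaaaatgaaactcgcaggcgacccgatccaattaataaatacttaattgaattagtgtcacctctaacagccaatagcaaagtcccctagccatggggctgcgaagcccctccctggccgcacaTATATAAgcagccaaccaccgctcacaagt
Neurod1: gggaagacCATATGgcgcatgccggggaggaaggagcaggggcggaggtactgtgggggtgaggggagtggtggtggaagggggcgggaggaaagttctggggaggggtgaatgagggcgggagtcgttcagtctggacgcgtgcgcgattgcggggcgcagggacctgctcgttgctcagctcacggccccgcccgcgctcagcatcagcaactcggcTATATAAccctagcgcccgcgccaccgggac
Gadd45g: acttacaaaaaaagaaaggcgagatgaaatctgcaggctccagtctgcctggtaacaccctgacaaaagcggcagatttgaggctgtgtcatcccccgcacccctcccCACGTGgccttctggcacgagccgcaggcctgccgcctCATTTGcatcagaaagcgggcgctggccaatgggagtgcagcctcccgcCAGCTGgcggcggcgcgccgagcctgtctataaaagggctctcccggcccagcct
These windows lie at chr3:127632886-127633135 on the plus strand, chr9:118477939-118478188 on the plus strand, chr2:79456637-79456886 on the minus strand and chr13:51846425-51846674 on the plus strand. The letters TATATAA stand 29 bases before the start in Neurog2 (first base at -29), at -30 in Eomes and at -31 in Neurod1, so 3 of the 8 genes carry them, against 3.04% of all 32851 RefSeq promoters of this length. TATATAA was added to the search after the sequences had been seen. Other TATA-like runs, such as the tataaaa near the end of the Gadd45g sequence, were neither searched nor marked. Gadd45g has CANNTG at -142, -104 and -55, the last being CAGCTG, and Neurod1 has a CANNTG at -242. Thus 2 of the 8 genes hold a CANNTG within 250 bases, where 66.2% of all promoters do. CAGATG was found in 0 of the 8 and in 14.4% of all promoters, CAGCTG in 1 and in 13.0%, and TGGGAA, the core letters bound by the Notch effector RBPJ, in 1 (Btg2, at -176) and in 21.6%. Both strands were searched. A match is a run of letters and not a measured binding site.

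Total counts per cortex lay between 21843330 and 28189771 for E11.5 and between 20799311 and 23330432 for E12.5, and the floor of 3 counts corresponds to 0.106 to 0.144 CPM, the count scaled to library size. The least counted of the 10 genes, Neurod4 at E12.5, still had 67 to 97 counts per cortex. Mboat7 itself had 700 and 876 counts in Mboat7+/- cortices at E11.5, 1103 and 860 where Mboat7-/- was the label, and 739 and 782 against 730 and 729 at E12.5. The gene-level count therefore does not separate the genotypes (log2 fold change 0.17 with a standard error of 0.11 at E11.5, -0.17 with a standard error of 0.10 at E12.5, adjusted p = 0.527 and 0.958 in edgeR), and it does not show which exons the reads came from, so the genotypes below are as labelled. Xist was counted 17875 times in the E11.5 Mboat7+/- replicate 1 and at most 2 times in any other cortex. Of the RGC genes, Pax6 lay between 99.9 and 156 CPM and Emx2 between 95.3 and 156 CPM over all cortices. The ventral telencephalon gene Dlx2 was at similar levels, 83.4 to 132 CPM at E11.5 and 145 to 161 CPM at E12.5. These values do not show how much of each sample was cortex.

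To ask whether the IPC program differed between genotypes at the earlier stage, the E11.5 cortices were compared first. All 10 genes had a lower fitted level in the cortices labelled Mboat7-/- (51% of the 14935 genes tested did), with log2 fold changes from -0.57 to -0.16 and a median of -0.27, beside a median of -0.01 over all genes. None of the 10 passed an adjusted p (false discovery rate, FDR) of 0.05 in edgeR's quasi-likelihood test, and 0% of all genes did. At an unadjusted p under 0.05, 4 of the 10 were lower, where 5.81% of all genes were lower and 7.94% higher, 13.8% together. DESeq2 and edgeR's exact test also left 0 of the 10 under an FDR of 0.05 and 4 under an unadjusted p of 0.05. In 6 of the 10 genes both Mboat7-/- values lay below both Mboat7+/- values, against 23.3% of all genes. These are bulk tissue values, in which fewer cells of a type and less RNA per cell cannot be told apart.

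**Figure D1:**
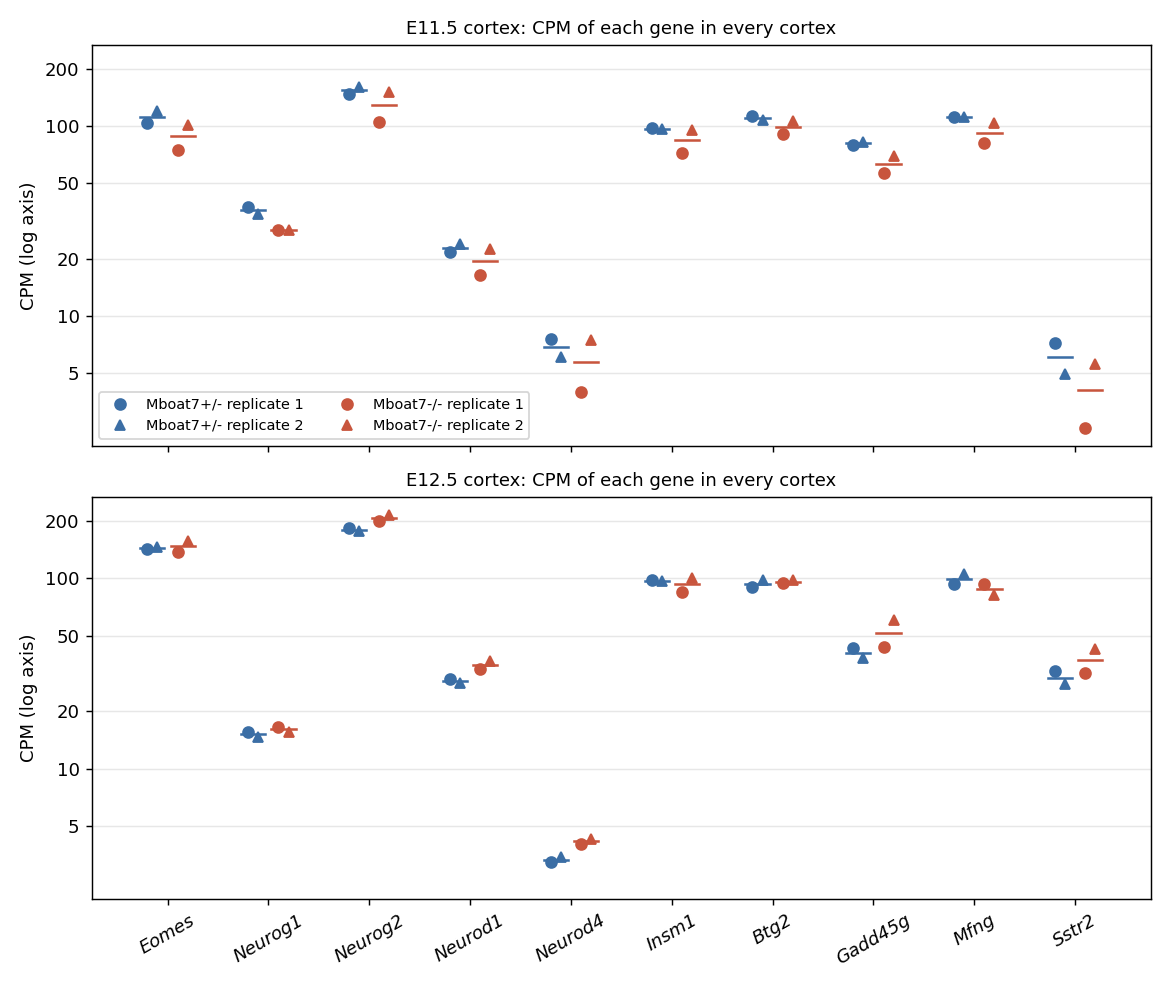
CPM of the 10 genes in every cortex at E11.5 (upper panel) and E12.5 (lower panel), on a log axis. Circles are replicate 1 and triangles replicate 2, blue is Mboat7+/- and red is Mboat7-/-, and short lines are genotype means. At E11.5 the red circle is the lowest symbol of every gene, level with the red triangle for Neurog1, and at E12.5 the symbols lie close together apart from the higher red triangles of Gadd45g and Sstr2.

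The neurogenins stand at the head of the cascade. Neurog2 (chr3:127633135-127635631, GRCm38, plus strand) was at 148 and 161 CPM in the E11.5 Mboat7+/- cortices and at 105 and 151 CPM in the cortices labelled Mboat7-/-. Only Mboat7-/- replicate 1 was low, the groups overlapped, and the log2 fold change was -0.27 (standard error 0.15, adjusted p = 0.456 in edgeR). Neurog1 (chr13:56250478-56252163, minus strand) was at 37.3 and 34.6 CPM in Mboat7+/- and at 28.4 and 28.5 CPM in Mboat7-/-. It was the gene in which the Mboat7-/- pair lay closest together, with no overlap between genotypes, a mean of 36.0 ± 1.92 CPM against 28.5 ± 0.0205 CPM (SD, n = 2), and a log2 fold change of -0.34 (standard error 0.11, unadjusted p = 0.0150, adjusted p = 0.256 in edgeR).

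Of the factors that follow, Eomes (chr9:118478212-118486132, plus strand) was at 103 and 119 CPM in Mboat7+/- and at 74.7 and 102 CPM in Mboat7-/-, with no overlap, though Mboat7-/- replicate 2 came close to Mboat7+/- replicate 1. Its means were 111 ± 11.3 and 88.1 ± 19.0 CPM (SD, n = 2), and its log2 fold change was -0.34 (standard error 0.14, unadjusted p = 0.0388, adjusted p = 0.332 in edgeR). The bHLH factor Neurod1 (chr2:79452521-79456751, minus strand) was at 21.8 and 24.0 CPM against 16.5 and 22.6 CPM. Here too only Mboat7-/- replicate 1 was low and the genotypes overlapped (log2 fold change -0.23, standard error 0.17). Neurod4 (chr10:130268152-130280240, minus strand), which is expressed in differentiating cells, was at 7.62 and 6.08 CPM against 4.0 and 7.53 CPM. Its values overlapped, with Mboat7-/- replicate 2 lying between the Mboat7+/- cortices, and the interval of the log2 fold change ran from -0.98 to 0.47.

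Insm1 (chr2:146221921-146225020, plus strand) was nearly equal in the Mboat7+/- cortices, at 97.7 and 96.0 CPM, and was at 72.3 and 95.4 CPM in Mboat7-/-. The values did not overlap, but the upper Mboat7-/- value nearly reached the Mboat7+/- pair, and the log2 fold change was -0.21 (95% interval -0.48 to 0.06, adjusted p = 0.483 in edgeR). The antiproliferative gene Btg2 (chr1:134075170-134079120, minus strand) was at 112 and 108 CPM against 90.9 and 106 CPM, a log2 fold change of -0.16 (95% interval -0.36 to 0.05, adjusted p = 0.478 in edgeR).

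Gadd45g, an early target of proneural factors (chr13:51846678-51848468, plus strand), had the smallest p of the 10 at E11.5. It was at 79.8 and 82.0 CPM in Mboat7+/- and at 56.7 and 69.8 CPM in Mboat7-/-, with means of 80.9 ± 1.57 and 63.3 ± 9.30 CPM (SD, n = 2). Both Mboat7-/- cortices were clearly below both Mboat7+/- cortices, with a log2 fold change of -0.36 (standard error 0.10, unadjusted p = 0.00840, adjusted p = 0.224 in edgeR). Mfng (chr15:78755882-78773475, minus strand), whose product adds sugars to Notch, was at 111 CPM in each Mboat7+/- cortex and at 81.0 and 103 CPM in Mboat7-/-. The groups did not overlap (log2 fold change -0.28, standard error 0.11, unadjusted p = 0.0345, adjusted p = 0.322 in edgeR). Sstr2 (chr11:113619342-113626028, plus strand) was low throughout, at 7.20 and 4.95 CPM against 2.58 and 5.63 CPM. Its fold change was the largest of the 10 at -0.57 and also the least certain, with overlapping groups and a 95% interval from -1.44 to 0.30.

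The replicate structure matters for all of these values. Each of the 10 genes was lowest in Mboat7-/- replicate 1, Neurog1 only by 28.4 against 28.5 CPM, whereas 28.8% of all genes tested were lowest in that cortex. The mean deviation of the 10 genes from their stage means on the log2(CPM + 0.5) scale was 0.18 and 0.13 in the Mboat7+/- cortices, -0.38 in Mboat7-/- replicate 1 and 0.07 in Mboat7-/- replicate 2. Between the Mboat7-/- cortices 9 of the 10 genes differed by more than the 95% interval of the counting error, with a median log2 difference of 0.42, and between the Mboat7+/- cortices 4 did, with a median of 0.11. The share of all genes that did so was not computed. Over all but the least counted genes, chi-square per degree of freedom was 14.9 between the Mboat7-/- cortices and 8.70 between the Mboat7+/- cortices. Differences beyond counting error were thus not particular to the 10 genes.

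Leaving out single cortices showed how far the comparison rests on that embryo. Without Mboat7-/- replicate 1, the median log2 fold change of the 10 genes was -0.075, Neurod4 turned to 0.14, and Neurog1 (-0.34) and Gadd45g (-0.21) were the only ones of the 10 left with an unadjusted p under 0.05 (0.0449 and 0.0277 in edgeR), where 11.8% of all genes had one and 5.65% were lower. Without Mboat7-/- replicate 2, the median was -0.49, and 7 of the 10 genes (Eomes, Neurog2, Insm1, Btg2, Gadd45g, Mfng and Sstr2) had an FDR under 0.05 together with 1180 genes in all. In both of these fits the lone Mboat7-/- cortex was assumed to vary like the Mboat7+/- pair. Without the Xist-positive cortex, Mboat7+/- replicate 1, the median was -0.28 and 0 genes of the 10 had an FDR under 0.05.

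Replicate numbers double as batch numbers in the labels, and with the number as a block Eomes (adjusted p = 0.0410) and Gadd45g (adjusted p = 0.0457 in edgeR) passed an FDR of 0.05 among 349 genes. Their blocked log2 fold changes were -0.35 and -0.36. Deviations of same-numbered cortices correlated across genes at only 0.08 for E11.5, and a crossed pairing was read at E12.5 but not at E11.5. After a trend with exon length and GC content was removed from each library, with or without the block, 0 of the 10 passed, the median was -0.22 in both cases, and 0 and 3 of the 10 had an unadjusted p under 0.05 without and with the block, against 9.63% and 12.4% of all genes. Eomes was then at -0.31 without the block and -0.32 with it (adjusted p = 0.531 and 0.195 in edgeR), and Gadd45g at -0.22 and -0.23 (adjusted p = 0.519 and 0.318).

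**Figure D2:**
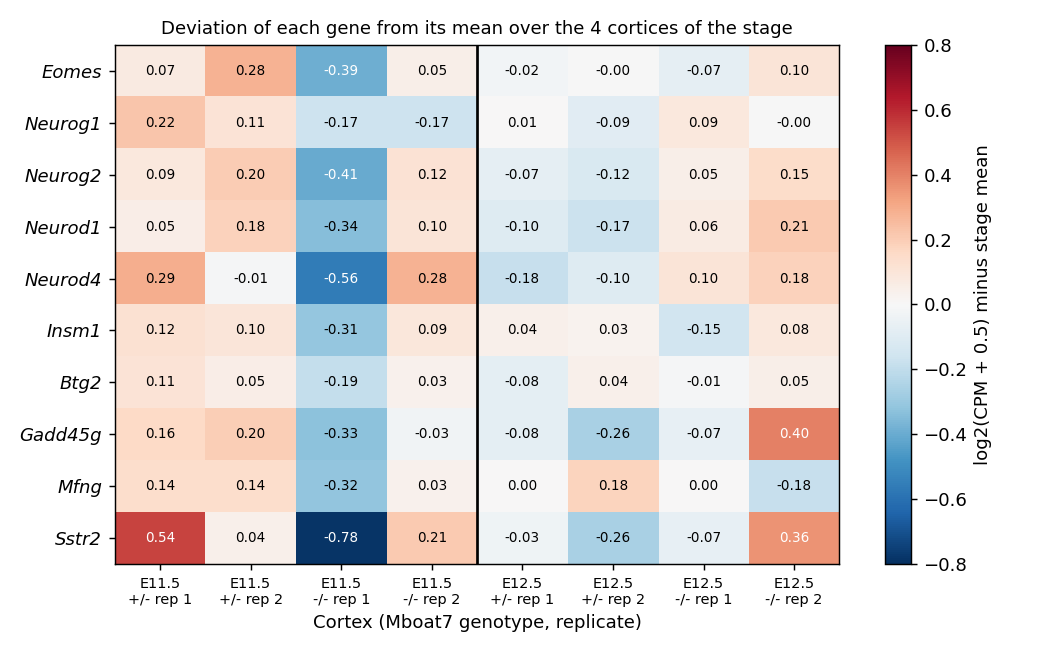
Deviation of each gene in each cortex from its mean over the 4 cortices of the stage, in log2(CPM + 0.5). Blue is below and red above the stage mean, and the column of the E11.5 Mboat7-/- replicate 1 is blue for all 10 genes, from -0.17 for Neurog1 to -0.78 for Sstr2.

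Other gene lists were read beside the IPC genes at E11.5. Of 14 RGC genes, 9 were lower and 5 higher (median log2 fold change -0.10), and the summed level was 4557 and 4608 CPM in Mboat7+/- against 4080 and 4686 CPM in Mboat7-/-. As a share of that sum, the 10 IPC genes were at 15.9% and 16.2% in Mboat7+/- and at 13.0% and 14.8% in Mboat7-/-, so the genotypes did not overlap. Among all single genes tested, 23.3% had both Mboat7-/- values below both Mboat7+/- values, and no such rate was computed for ratios of list sums. The RGC sum is weighted toward Vim and Nes, which had the highest mean levels in it (1547 and 1161 CPM). This share was not tested. Of 15 neuronal genes, 14 were lower (median -0.23), with sums of 2643 and 2975 CPM against 1849 and 2805 CPM. Measured against neurons, the IPC genes were at 27.5% and 25.1% in Mboat7+/- and at 28.8% and 24.7% in Mboat7-/-. The Mboat7-/- shares thus enclosed the Mboat7+/- shares, and Mboat7-/- replicate 1, lowest in the IPC genes, had the highest share relative to neuronal genes.

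Among neuronal genes, Tubb3, a tubulin of neurons, was at 929 and 1022 CPM against 555 and 867 CPM, and Fezf2, a factor of deep-layer neurons, had the smallest p (log2 fold change -0.33, adjusted p = 0.190 in edgeR). Of 20 targets of the proneural cascade and later IPC genes, 16 were lower (median -0.11), among them Rcor2, a corepressor subunit, at 325 and 333 against 273 and 293 CPM. The cell-cycle inhibitor Cdkn1c went the other way, at 436 and 391 against 510 and 438 CPM. Elavl4, Dcx, Neurod2, Neurod6 and Tbr1 stand in both this list and the neuronal list. Each was lower, so the counts of these lists are not independent. Of 14 bHLH partners, cofactors and inhibitors, 10 were lower (median -0.14), with sums of 1976 and 2026 against 1832 and 1949 CPM. The E-proteins that pair with neurogenins were split, Tcf3 being at 542 and 534 against 528 and 483 CPM and Tcf12 at 226 and 236 against 267 and 263 CPM.

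The 18 Notch pathway genes had no common direction, 11 being higher and 7 lower with a median of 0.03. The receptor gene Notch3 was at 231 and 219 against 284 and 260 CPM (log2 fold change 0.27, adjusted p = 0.197 in edgeR). The ligand-like gene Dll3, a proneural target, was at 72.6 and 66.2 against 52.5 and 56.2 CPM (-0.35, adjusted p = 0.194 in edgeR). Not 1 gene of any list reached an FDR under 0.05.

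In 3 lists of markers of other tissues at E11.5, most tested genes also shared a direction, and 0 had an FDR under 0.05. Of all genes tested, 51% were lower in Mboat7-/-. Of the 7 tested of 10 blood genes, all were lower in Mboat7-/-, with sums of 6958 and 5245 CPM against 3639 and 3880 CPM. Of 10 mesenchyme genes 9 were higher, with sums of 1706 and 1666 against 1945 and 2107 CPM. Of the 7 tested of 12 genes of cranial ganglia and olfactory placode, 5 were higher, with sums of 72.4 and 71.3 against 93.1 and 91.6 CPM.

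Ventral telencephalon genes were lower in 11 of 12 (median -0.30, sums 720 and 670 against 534 and 662 CPM), Cajal-Retzius cell genes in 8 of 10 (median -0.22, sums 333 and 364 against 296 and 347 CPM), and diencephalon and eye genes in 9 of 12 (median -0.06, sums 532 and 474 against 453 and 499 CPM). The sums of these 3 lists, like those of the RGC, neuronal, bHLH, target and blood genes, were lowest in Mboat7-/- replicate 1, the cortex that was lowest in the IPC genes. The part of these lists in the values of the IPC genes was not tested.

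**Figure D3:**
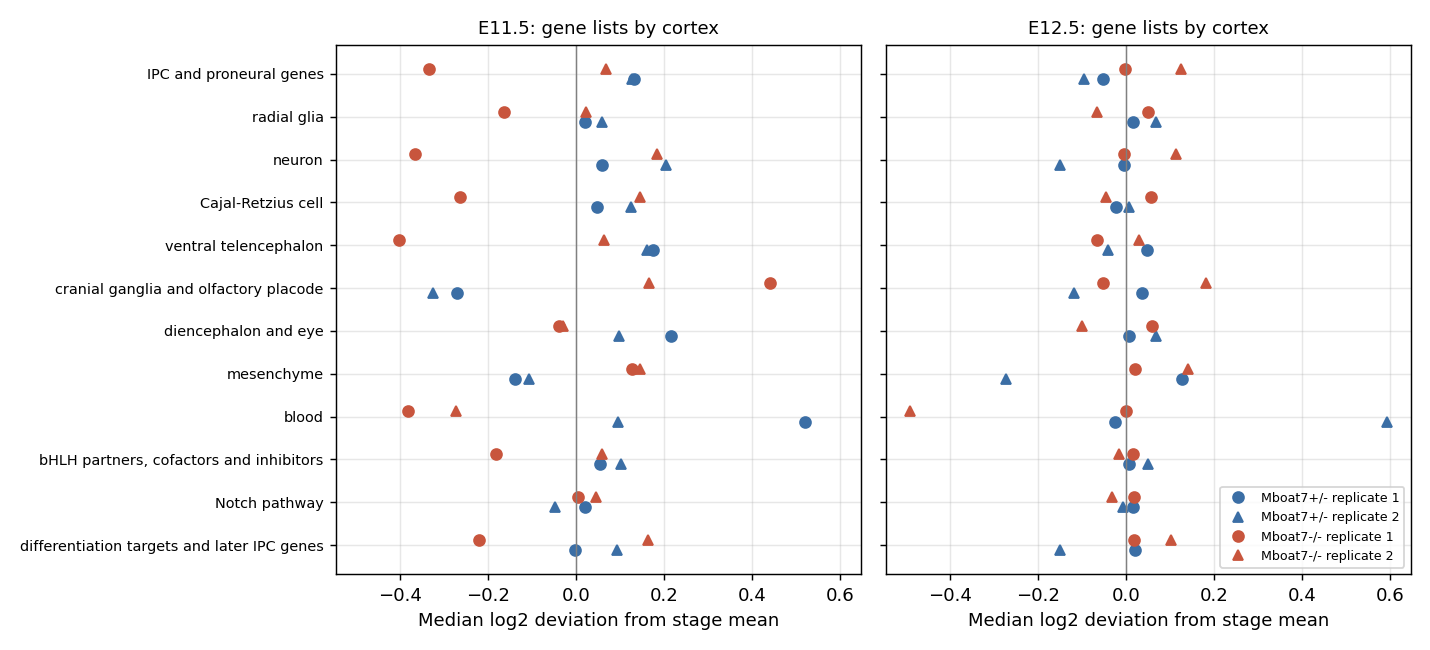
Median deviation of each gene list from its stage mean, in log2(CPM + 0.5), for every cortex at E11.5 (left) and E12.5 (right). Circles are replicate 1 and triangles replicate 2, blue is Mboat7+/- and red is Mboat7-/-. At E11.5 the red circle lies at -0.33 for the IPC and proneural genes, -0.37 for neurons and -0.40 for ventral telencephalon, and at E12.5 all lists but blood and mesenchyme lie within 0.20 of 0.

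At E12.5 the fold changes of most of the 10 genes had the opposite sign. In the cortices labelled Mboat7-/-, 8 genes had a higher fitted level and 2 (Insm1 and Mfng) a lower one, where 48.8% of the 16326 genes tested were lower. The median log2 fold change was 0.14, beside 0.01 over all genes. None of the 10 passed an FDR of 0.05 in edgeR (0.0184% of all genes did), in DESeq2 or in edgeR's exact test. At an unadjusted p under 0.05, 2 of the 10 were higher in edgeR, 1 in DESeq2 and 2 in the exact test, against 2.76% of all genes higher and 1.35% lower in edgeR, 4.11% together. In 4 genes both Mboat7-/- values were above both Mboat7+/- values, against 16.9% of all genes.

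Neurog2 was at 184 and 178 CPM in the E12.5 Mboat7+/- cortices and at 199.5 and 214 CPM in those labelled Mboat7-/-. The groups did not overlap, with means of 181 ± 4.42 and 207 ± 10.5 CPM (SD, n = 2) and a log2 fold change of 0.20 (95% interval -0.01 to 0.40, adjusted p = 0.958 in edgeR). Neurog1 overlapped, at 15.7 and 14.6 against 16.6 and 15.6 CPM (log2 fold change 0.09, 95% interval -0.20 to 0.38).

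The IPC factor Eomes was at 143 and 145 CPM against 138 and 156 CPM. The Mboat7-/- values lay on either side of the Mboat7+/- pair, and the 95% interval of the log2 fold change ran from -0.18 to 0.24 around 0.03. Neurod1, which follows Eomes in the cascade, was at 29.6 and 28.1 against 33.2 and 36.9 CPM, without overlap. Its log2 fold change of 0.28 (standard error 0.11) had the smallest p of the 10 at E12.5 (unadjusted p = 0.0250, adjusted p = 0.958 in edgeR). Relative to Eomes, the CPM ratio of Neurod1 was 0.207 and 0.193 in Mboat7+/- and 0.240 and 0.236 in Mboat7-/- at E12.5, and 0.212 and 0.201 against 0.221 and 0.223 at E11.5. The Mboat7-/- ratios were therefore above the Mboat7+/- ratios at both stages, by little at E11.5, and this ratio was not tested. Of all single genes tested, 23.1% at E11.5 and 16.9% at E12.5 had both Mboat7-/- values above both Mboat7+/- values. No such rate was computed for ratios of genes. Neurod4 was at 3.22 and 3.43 against 4.04 and 4.29 CPM, also without overlap, but on fewer than 100 counts per cortex, and its interval ran from -0.20 to 0.85.

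Gadd45g was the other gene with an unadjusted p under 0.05 at E12.5, at 43.2 and 38.1 CPM in Mboat7+/- and 43.5 and 60.4 CPM in Mboat7-/-. The groups stayed apart only narrowly, since Mboat7-/- replicate 1 nearly equalled Mboat7+/- replicate 1, and the log2 fold change was 0.35 (standard error 0.15, unadjusted p = 0.0338, adjusted p = 0.958 in edgeR). Sstr2 was at 32.5 and 27.7 against 31.7 and 42.8 CPM, overlapping, with a log2 fold change of 0.31 (95% interval -0.01 to 0.63). Btg2, at 89.7 and 97.6 against 94.1 and 98.2 CPM, and Insm1, at 97.6 and 96.7 against 85.3 and 100.4 CPM, overlapped as well, with log2 fold changes of 0.04 (95% interval -0.17 to 0.24) and -0.07 (-0.29 to 0.16). Mfng was at 93.1 and 105 against 93.3 and 81.9 CPM and was the lowest of the 10 in fold change at -0.18 (95% interval -0.41 to 0.05).

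At this stage the outlying cortex was Mboat7-/- replicate 2, which held the highest value of 8 of the 10 genes, where 33.2% of all genes tested were highest there. The mean deviation of the 10 genes was -0.05 and -0.08 in Mboat7+/-, -0.01 in Mboat7-/- replicate 1 and 0.14 in Mboat7-/- replicate 2. Without Mboat7-/- replicate 2 the median log2 fold change was 0.09, and 0 of the 10 genes had an unadjusted p under 0.05, against 2.81% of all genes. Without Mboat7-/- replicate 1 it was 0.18, and Gadd45g and Sstr2 had an FDR under 0.05 among 301 genes, the lone cortex again being assumed to vary like the Mboat7+/- pair.

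Beside them at E12.5, 13 of 15 neuronal genes were higher (median 0.12, sums 4570 and 4257 against 4439 and 4639 CPM), led by Neurod6, a bHLH gene of cortical projection neurons, at 95.5 and 80.5 against 100.1 and 142 CPM (log2 fold change 0.46, adjusted p = 0.958 in edgeR). Of the 20 targets and later IPC genes 14 were higher (median 0.14, sums 4736 and 4348 against 4753 and 4893 CPM). Prdm8, a transcriptional regulator of projection neurons, had the smallest p and was at 20.2 and 19.5 against 23.1 and 31.5 CPM. Ppp1r17 had the lowest log2 fold change of the 20, -0.73, at 2.79 and 3.10 against 2.13 and 1.41 CPM. Both Mboat7-/- values were above both Mboat7+/- values in 7 of the 20 and below them in 4 (16.9% and 15.2% of all genes). The genes shared with the neuronal list (Elavl4, Dcx, Neurod2, Neurod6 and Tbr1) were each higher and count in both lists. RGC genes were lower in 9 of 14 (median -0.05, sums 3546 and 3809 against 3624 and 3328 CPM), and the RGC filament gene Nes was at 714 and 795 against 632 and 573 CPM. Pax6 went the other way, at 105 and 99.9 against 118 and 120 CPM (log2 fold change 0.22, adjusted p = 0.958 in edgeR). Both Mboat7-/- values were below both Mboat7+/- values in 4 of the 14 and above them in 2 (15.2% and 16.9% of all genes). As a share of the RGC sum the IPC genes were at 20.6% and 19.3% in Mboat7+/- and 20.4% and 24.4% in Mboat7-/-, which overlapped, and as a share of the neuronal sum at 16.0% and 17.3% against 16.7% and 17.5%.

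Of the bHLH partners, cofactors and inhibitors 9 of 14 were lower (median -0.03, sums 1935 and 1911 against 1949 and 1929 CPM), though the E-protein gene Tcf4 was at 286 and 233 against 302 and 345 CPM. Notch pathway genes were higher in 11 of 18 (median 0.03, sums 1534 and 1523 against 1533 and 1466 CPM), and Dll3 was again lower in both Mboat7-/- cortices, at 38.9 and 44.8 against 36.6 and 32.1 CPM (log2 fold change -0.28, adjusted p = 0.958 in edgeR). Blood genes were lower in 10 of 10 (sums 5342 and 7770 against 5438 and 3834 CPM), and mesenchyme genes higher in 7 of 10 (sums 714 and 556 against 695 and 745 CPM).

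Ventral telencephalon genes were lower in 7 of 12 (sums 883 and 836 against 821 and 886 CPM), Cajal-Retzius cell genes in 6 of 10 (median -0.05, sums 319.8 and 306 against 341 and 343 CPM), and the tested diencephalon and eye genes in 4 of 7 (median -0.03, sums 182 and 193 against 183 and 166 CPM). Cranial ganglion and placode genes were higher in 4 of 7 (median 0.16, sums 49.0 and 43.4 against 49.2 and 51.6 CPM), with Tlx2 at 0 in every cortex. The part of these lists in the values of the IPC genes was not tested at E12.5 either.

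Whether the genotype difference itself differed between the stages was tested as an interaction over all 8 cortices. It was upward from E11.5 to E12.5 in all 10 genes, where 49.3% of the 15003 genes tested had a downward interaction, and the median was 0.44 beside 0.00 over all genes. None of the 10 had an FDR under 0.05 (0% of all genes did in edgeR), nor in DESeq2. At an unadjusted p under 0.05 there were 5, against 2.65% of all genes upward and 3.06% downward, 5.71% together, and in DESeq2 there were 4.

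The interaction was 0.71 for Gadd45g (standard error 0.21, unadjusted p = 0.00522, adjusted p = 0.691 in edgeR), 0.88 for Sstr2 (95% interval 0.01 to 1.75), 0.51 for Neurod1 (0.06 to 0.96), 0.46 for Neurog2 (0.05 to 0.88) and 0.42 for Neurog1 (0.07 to 0.78). The 5 others were Neurod4 at 0.57, Eomes at 0.36, Btg2 at 0.19, Insm1 at 0.14 and Mfng at 0.10, each with an interval that included 0. Without the E11.5 Mboat7-/- replicate 1 the median interaction was 0.19, and Insm1 and Mfng turned downward. Without the E11.5 Mboat7-/- replicate 2 it was 0.68, and Neurog2 and Sstr2 had an FDR under 0.05 among 118 genes.

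**Figure D4:**
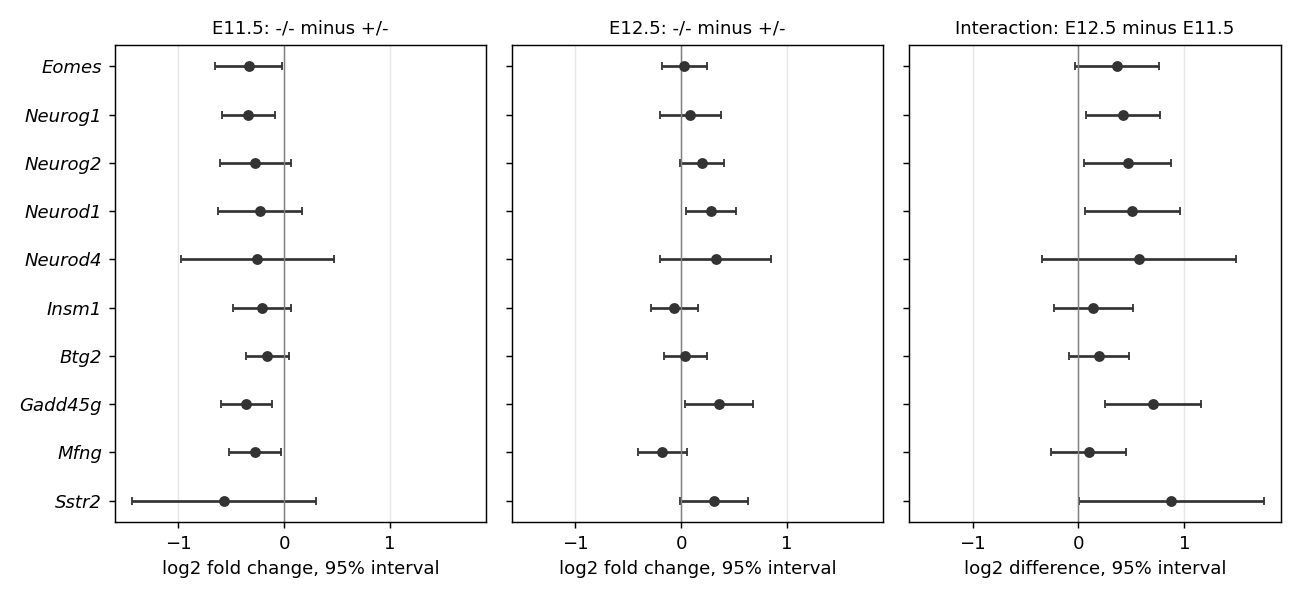
Fitted log2 fold change of each gene, Mboat7-/- minus Mboat7+/-, at E11.5 (left) and E12.5 (middle), and the difference of these fold changes, E12.5 minus E11.5 (right). Points are edgeR estimates and bars their 95% intervals. All 10 points lie left of 0 at E11.5, 8 lie right of 0 at E12.5, and Gadd45g has its whole bar on opposite sides of 0 at the 2 stages.

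In a fit of the genotype difference shared by the stages, the opposite signs largely cancelled. The median log2 fold change was -0.05, 8 of the 10 genes were lower (48.5% of all genes were), and 0 had an FDR under 0.05 (0% of all genes in edgeR). Mfng, lower in fitted level at both stages, was the gene with an unadjusted p under 0.05, at -0.22 (standard error 0.08, unadjusted p = 0.0148, adjusted p = 0.383 in edgeR), where 4.63% of all genes were lower and 6.68% higher, 11.3% together. DESeq2 also gave 0 under an FDR of 0.05 and 1 under an unadjusted p of 0.05. Eomes was at -0.15 (95% interval -0.37 to 0.07) in this fit and Neurog2 at -0.03 (-0.28 to 0.21).

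Levels were then ordered per kilobase of exon, over the 4 cortices of a stage. At E11.5 the order was Neurog2 (mean 63.3 CPM per kilobase), Gadd45g (61.4), Btg2 (38.0), Mfng (35.8), Insm1 (29.1), Eomes (24.0), Neurog1 (19.1), Neurod1 (7.78), Sstr2 (2.38) and Neurod4 (1.89). Neighbours in this order overlapped in range over the cortices except for Gadd45g and Btg2, Neurog1 and Neurod1, and Neurod1 and Sstr2. At E12.5 Neurog2 (87.0) stood apart from Gadd45g (39.5), followed by Eomes (35.1), Btg2 (34.6), Mfng (32.9) and Insm1 (30.7) with overlapping ranges, then by Sstr2 (15.7), Neurod1 (11.7), Neurog1 (9.27) and Neurod4 (1.12). In this lower part only Sstr2 and Neurod1 overlapped. The proneural factor Neurog2 had the highest mean at both stages, though its range overlapped that of Gadd45g at E11.5, while Neurog1 moved from seventh to ninth place and Sstr2 from ninth to seventh.

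The stages were sequenced by different providers on different platforms and counted on different annotations, so stage and provider cannot be told apart and values are only set side by side. Over the 4 cortices of each stage, Eomes ranged from 74.7 to 119 CPM at E11.5 and from 138 to 156 CPM at E12.5, and Neurog2 from 105 to 161 and from 178 to 214 CPM. Neurod1 ranged from 16.5 to 24.0 and from 28.1 to 36.9 CPM, and Sstr2 from 2.58 to 7.20 and from 27.7 to 42.8 CPM. These 4 genes were higher in every E12.5 cortex than in any E11.5 cortex. Neurog1 was the gene with the opposite order, from 28.4 to 37.3 CPM at E11.5 and from 14.6 to 16.6 CPM at E12.5, and the other 5 genes overlapped. The share of all genes whose E11.5 and E12.5 ranges stood apart was not computed. These counts therefore do not show whether the genes differ between the tables more often than other genes. Within a cortex the CPM ratio of Neurog2 to Neurog1 was 3.69 to 5.30 at E11.5 and 11.7 to 13.7 at E12.5, whereas the ratio of Eomes to Neurog2 was 0.673 to 0.741 and 0.694 to 0.819. At E12.5 this last ratio was 0.780 and 0.819 in Mboat7+/- and 0.694 and 0.730 in Mboat7-/-, with no overlap, and at E11.5 it was 0.697 and 0.741 against 0.712 and 0.673, with overlap. The difference in this ratio was not tested. Of all single genes tested at E12.5, 15.2% had both Mboat7-/- values below both Mboat7+/- values, and no such rate was computed for ratios of genes.

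The genes whose pattern over the 8 cortices was nearest to the mean of the 10 were Parp6, Elmo1, Sept5, Hcn3 and Sp9, with root mean square differences of 0.035 to 0.044 on the log2 scale, out of 9347 genes with a mean of at least 10 CPM at each stage. ELMO1 takes part in RAC activation, HCN3 is an ion channel subunit, and SP9 is a transcription factor of ventral telencephalon. Of the 10 genes themselves Neurog2 (0.053), Neurod1 (0.074) and Eomes (0.076) were nearest to the mean and Sstr2 (0.225) was farthest. The pattern is mostly that of the E11.5 Mboat7-/- replicate 1, where Parp6 was at -0.41 and Sp9 at -0.47 against their stage means.

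The counting of overlapping genes limits 3 of these values. Eomes shares its locus with Gm33460 on the opposite strand, Sstr2 overlaps Slc39a11 on the opposite strand, and Neurod1 overlaps Cerkl on its own strand and the noncoding Gm26755. Libraries were directional, but whether counting used the strand is not given in the sources used here, so reads of these pairs may not be separated.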

How the data were processed

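Each stage had a deposited table of raw read counts per gene, which the authors made without normalization and with 1 column per embryo. Submitters' processing notes name HISAT2, Subread, mm10 and GRCm39 without versions or roles. E11.5 genes are listed by symbol and E12.5 genes by Ensembl identifier, matched to symbols for 98.8% and 81.4% of the genes with a count. Exon lengths and positions came from GENCODE M21 (GRCm38, also called mm10).

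Counts were fitted per stage with edgeR 4.0.16 in R 4.3.3 (TMM, filterByExpr at its minimum of 10 counts, quasi-likelihood F test, p-values adjusted by Benjamini-Hochberg), Mboat7-/- minus Mboat7+/-, and, for genes in both tables, jointly with a stage term and an interaction. CPM used normalized library sizes, deviations log2(CPM + 0.5), and fitted fold changes a prior count of 0.125. Floors and counting errors cover counting error only. P-values rest on the spread between 2 embryos per group, which edgeR moderates with the spread of all other genes tested. Standard errors of fold changes were computed from the fold change and its F statistic, and the intervals from these standard errors. Whether the embryos shared litters is not given in the sources used here. Replicate pairs differed by more than sampling noise (chi-square per degree of freedom 8.70 to 14.9). The fits were tested on simulated data.

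The genes and lists were chosen with earlier results of these data known. Named were the 10 genes, Mboat7, Xist, the genes of each list with the 2 highest mean CPM or the smallest p, and the 5 nearest patterns. Pax6, Emx2, Tlx2 and Ppp1r17 were named after their values were seen. Genes shared by the neuronal and target lists were named for that overlap.

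Alternatives were RLE and upper-quartile scaling, DESeq2 1.42.0, edgeR's exact test, other filters (none, or 10 counts in each cortex), the replicate block, and each cortex left out. Removal of a length and GC trend (splines of 5 degrees of freedom) and crossed pairing were added after the data were seen. Deviations of same-numbered cortices correlated across genes at 0.08 for E11.5 and -0.20 for E12.5. The number was taken to pair the cortices because the labels give it as a batch.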

Additional observations from a re-analysis of the deposited data

Results flagged for a closer look

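Gadd45g was set apart because its genotypes did not overlap at either stage and lay in opposite order. Its interaction was 0.71 on the log2 scale (standard error 0.21, unadjusted p = 0.00522, adjusted p = 0.691 in edgeR). This p comes from the values that set the gene apart, so it is no separate support. Both cortices labelled Mboat7-/- were below both Mboat7+/- cortices at E11.5 (56.7 and 69.8 against 79.8 and 82.0 CPM) and above them at E12.5 (43.5 and 60.4 against 43.2 and 38.1 CPM). The lack of overlap at E12.5 thus rests on 43.5 against 43.2 CPM. Across the alternatives the interaction stayed upward, between 0.45 without the E12.5 Mboat7-/- replicate 2 and 0.93 without the E12.5 Mboat7-/- replicate 1, and its adjusted p ranged from 0.0180 without a filter on low counts to 1.00. Stage, provider and platform cannot be told apart in this difference.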

How the results depend on the processing

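At E11.5 the count of the 10 genes with an FDR under 0.05 was 2 with the replicate block, and leaving out cortices gave 0 to 7, the 7 being without Mboat7-/- replicate 2. The E11.5 median log2 fold change ranged from -0.49 (without Mboat7-/- replicate 2) to -0.075 (without Mboat7-/- replicate 1). At E12.5 leaving out cortices gave 0 to 2 genes, the 2 being without Mboat7-/- replicate 1. The interaction gave 1 gene (Gadd45g) without a filter and 0 to 2 when cortices were left out, with a median from 0.19 (without the E11.5 Mboat7-/- replicate 1) to 0.68 (without the E11.5 Mboat7-/- replicate 2). The shared fit gave 0 genes under every alternative, and its median turned from -0.05 to 0.06 without the E11.5 Mboat7-/- replicate 1. Only the left-out cortex, the block or the filter differs in these fits, and the cause was not tested. The replicate block changed no other call. At E12.5, crossing the pairing gave 0 of the 10 genes and 148 genes in all, against 21 with the labelled pairing and 3 without a block. Of the values of single genes under an alternative, 14 newly passed an FDR of 0.05 and 576 stayed on the same side of it.

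Each genotype had 2 embryos per stage, and the Mboat7-/- replicates differed beyond counting error in 9 of the 10 genes at E11.5 and in 7 at E12.5, the Mboat7+/- replicates in 4 at each stage. The matching share of all genes was not computed, and replicate pairs also differed by more than sampling noise over the whole table. At E12.5 both pairs of Neurod4 and of Neurog1 differed by less than their counting error. Without the E11.5 Mboat7-/- replicate 1 the E11.5 differences of Neurog2, Neurod1 and Insm1 were -0.03, -0.02 and -0.02.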
